A study of Mus musculus with 9 samples.

Results

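The genes described here encode the vascular endothelial growth factor (VEGF) ligands Vegfa, Vegfb and Vegfc, the receptor tyrosine kinases Flt1 (VEGFR1) and Kdr (VEGFR2), and the neuropilin co-receptors Nrp1 and Nrp2. They are 7 of 24411 gene rows, matched by symbol. The 7 members were chosen by gene family with their levels in these same libraries already known, so their levels and differences are given as a description, without p-values. All 7 passed the low-count filter, which left 11002 genes. RNA was sequenced from primary microglia, the resident macrophages of the brain, prepared from ICR mouse pups at 3 days of age. Microglia were shaken off mixed glial cultures grown from whole brains, so other glial cells could be carried over. There were 3 libraries in each of 3 treatment groups, and treatment lasted 4 h. Cells of the R848 group were given 1 µM of R848 (resiquimod, a small-molecule agonist of the endosomal RNA sensor TLR7 in mice), the IFN-α group received 100 U/ml recombinant mouse IFN-α (a type I interferon), and the R848+IFN-α group received both agents. All groups share the strain, the culture method and the treatment time, and an untreated group is not analysed here, so each difference is between treatments. The labels do not say whether libraries of a group came from separate cultures, so the spread between them may be technical.

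VEGF ligands are secreted dimers that act mainly on endothelial cells. VEGF-A binds the products of Flt1 and Kdr, VEGF-B binds that of Flt1, and VEGF-C binds that of Kdr and the lymphatic receptor encoded by Flt4. The Kdr product carries most of the growth and permeability signal in endothelium, whereas the Flt1 product binds VEGF-A tightly with weak kinase activity and guides the migration of monocytes and macrophages. Neuropilins bind VEGF ligands and also class 3 semaphorins, for which they pair with plexins. In brain, VEGF-A is made by glia under low oxygen and acts on vessels.

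Summed over genes, 8 libraries held 2505941 to 3298567 counts, and the total reached 6005578 in R848+IFN-α replicate 3. Levels below are in CPM, counts relative to library totals scaled by TMM factors, and 3 counts corresponded to 0.600 to 1.29 CPM. The 10 microglia markers checked summed to 2402 to 2501 CPM under R848, to 3579 to 3838 CPM under IFN-α and to 2466 to 2716 CPM under both agents, although the defining marker Tmem119 was low, at 3.79 ± 0.281, 2.86 ± 1.18 and 0.391 ± 0.401 CPM (mean ± SD, n = 3). The 11 astrocyte markers, all of them tested, summed to 1455 to 1712, 1162 to 1466 and 2389 to 3434 CPM, a sum made up mostly of Gfap and Aqp4. With both agents 9 of the 11 were called higher than with R848 and 5 higher than with IFN-α, and with R848 against IFN-α 2 were called higher and 4 lower. In such bulk samples, fewer cells of a type and less RNA per cell cannot be told apart. All 8 oligodendrocyte markers were tested, summing to 480 to 488, 614 to 735 and 534 to 577 CPM. Of these, Cnp differed most in CPM, at 57.2 ± 2.55, 202 ± 8.30 and 149 ± 13.6, whereas Mbp was at 174 ± 5.81, 176 ± 22.9 and 149 ± 2.49. With R848 against IFN-α 3 were called lower and none higher. Cnp was the 1 called with both agents against R848 (higher), and 2 were called lower and none higher against IFN-α. Pericyte and fibroblast markers summed to 120 to 164, 99.5 to 123 and 141 to 185 CPM with 7 of 11 tested and Rgs5, which marks pericytes, at 1, 0 and 2 counts. Of the 7, 2 were called higher with R848 than with IFN-α. With both agents 2 were called higher than with R848 and 3 higher than with IFN-α, and none was called lower in any comparison. Neuron markers, 4 of 7 tested, summed to 136 to 151, 141 to 175 and 159 to 173 CPM. Of all genes tested, 18.4% were called higher and 19% lower for R848 against IFN-α. The shares were 19.2% and 16.7% with both agents against R848, and 18.5% and 14.7% against IFN-α. Some of the marker counts lie near these shares, and no marker list was tested as a set. The part of these other cells in the results was not tested.

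The promoter windows of the receptors that differed most between treatments are shown first, because Flt1 and Kdr were both lowest with R848 while Nrp1 and Nrp2 had different orders of treatments. RefSeq promoter windows on GRCm38.p6, from 250 bases before to 50 bases after a gene's start, were found for all 7 members, in 8 windows. Each is written 5′ to 3′ on the gene's own strand. For Flt1 (chr5:147725962-147726261, minus strand) and Kdr (chr5:75978406-75978705, minus strand) capitals mark the single match in each to the NF-κB consensus. For Nrp1 (chr8:128358823-128359122, plus strand) and Nrp2 (chr1:62703067-62703366, plus strand) capitals mark GGGCGG, the GC box, on either strand.
Flt1: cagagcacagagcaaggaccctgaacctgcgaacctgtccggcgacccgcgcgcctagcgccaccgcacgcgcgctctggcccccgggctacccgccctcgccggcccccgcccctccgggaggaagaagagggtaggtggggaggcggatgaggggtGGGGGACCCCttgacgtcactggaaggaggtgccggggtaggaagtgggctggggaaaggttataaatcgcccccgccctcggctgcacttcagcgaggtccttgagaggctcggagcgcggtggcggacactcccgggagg
Kdr: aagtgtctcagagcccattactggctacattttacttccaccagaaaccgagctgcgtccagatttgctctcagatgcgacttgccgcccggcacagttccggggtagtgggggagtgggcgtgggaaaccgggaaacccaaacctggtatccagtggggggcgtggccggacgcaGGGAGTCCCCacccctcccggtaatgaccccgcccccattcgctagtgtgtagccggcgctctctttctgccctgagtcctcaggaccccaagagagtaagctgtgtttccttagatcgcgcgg
Nrp1: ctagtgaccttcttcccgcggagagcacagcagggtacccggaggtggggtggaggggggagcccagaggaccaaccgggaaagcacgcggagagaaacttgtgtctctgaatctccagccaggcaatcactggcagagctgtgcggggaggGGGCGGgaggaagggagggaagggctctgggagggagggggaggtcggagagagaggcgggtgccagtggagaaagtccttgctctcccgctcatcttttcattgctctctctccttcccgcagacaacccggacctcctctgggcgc
Nrp2: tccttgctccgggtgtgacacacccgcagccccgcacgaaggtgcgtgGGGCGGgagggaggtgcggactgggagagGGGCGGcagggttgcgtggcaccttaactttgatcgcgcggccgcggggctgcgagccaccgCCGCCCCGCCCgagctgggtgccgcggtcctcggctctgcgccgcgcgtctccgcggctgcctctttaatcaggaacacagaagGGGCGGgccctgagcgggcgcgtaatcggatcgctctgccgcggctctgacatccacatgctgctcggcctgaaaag

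The NF-κB match began 92 bases before the start in Flt1 and 74 bases before it in Kdr, and 8.46% of 32851 promoter windows of this length held such a match on either strand. Vegfa had 1 as well, 118 bases before the start of its first window. That Vegfa window also held the only interferon-stimulated response element core among the members (GAAA, any 2 bases, then GAAA), which 3.44% of windows held. The hypoxia response core ACGTG was found in the second Vegfa window alone, 211 bases before that start, against 19.6% of windows. That second window (chr17:46025114-46025413, minus strand) belongs to an internal start within the gene, not to the first start. The core ACGTG lies inside the E-box CACGTG where that is present. No member window held the AP-1 motif TGANTCA (7.81% of windows) or the STAT motif TTCNNNGAA (8.30%). GC boxes, present in 35.7% of windows, numbered 5 in Nrp2, 1 in Nrp1, 3 in Flt1, 2 in Kdr, 4 in Vegfb, 2 in Vegfc, and 2 and 1 in the windows of Vegfa. A match describes these letters only, and binding was not measured.

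Vegfa, the principal ligand of the family (chr17:46016993-46032369 on GRCm38, minus strand), was at similar levels under the 3 treatments. With R848 its libraries had 67.1, 68.3 and 67.8 CPM, with IFN-α 72.9, 76.8 and 90.2 CPM, and with both agents 65.8, 79.9 and 79.9 CPM. The R848 libraries were the closest together, and each lay below every IFN-α library, while the R848+IFN-α libraries overlapped both other groups. The log2 fold change ± SE was -0.24 ± 0.12 for R848 against IFN-α, 0.16 ± 0.12 for R848+IFN-α against R848 and -0.09 ± 0.12 for R848+IFN-α against IFN-α. None of the 3 differences passed the threshold of the fit (adjusted p under 0.05 by edgeR's quasi-likelihood test). The last of them depended on scaling, since with library totals alone it was -0.41 and passed (the median of all genes in that comparison was then -0.32 in place of -0.01). Without IFN-α replicate 3, the library with the highest level, it was 0.011.

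Vegfb, whose product binds the Flt1 receptor and neuropilin-1, was sparse (chr19:6982473-6987651, minus strand). It had 23, 9 and 8 counts with R848, 12, 14 and 17 with IFN-α, and 3, 4 and 15 with both agents, or 3.94 ± 2.34, 5.02 ± 0.378 and 1.95 ± 0.964 CPM. The R848+IFN-α libraries lay below the IFN-α libraries without overlap, and R848 replicate 1 stood above the other R848 libraries. The difference of R848+IFN-α from IFN-α was -1.21 ± 0.44 on the log2 scale and passed the threshold, but the call ended in 7 of 17 alternatives. It was -1.27, -1.21 and -1.16 without IFN-α replicate 1, 2 or 3, -0.97 and -1.12 without R848+IFN-α replicate 1 or 2, -1.01 with unstranded counts and -1.27 with DESeq2, none of them passing, and -1.82 without R848+IFN-α replicate 3, which passed. Against R848 it was -0.87 ± 0.45, which did not pass (-0.25 without R848 replicate 1, -1.48 without R848+IFN-α replicate 3, and -1.25, called, with library totals alone). For R848 against IFN-α it was -0.34 ± 0.40, and -0.96 without R848 replicate 1, neither called.

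Vegfc, which is best known as the lymphatic growth factor (chr8:54077606-54187096, plus strand), had 8, 12 and 24 counts with R848, 2, 9 and 7 with IFN-α, and 12, 13 and 43 with both agents. These were 4.39 ± 2.44, 2.08 ± 1.24 and 6.22 ± 2.14 CPM. The R848+IFN-α libraries were all above the IFN-α libraries, and the R848 libraries overlapped both other groups. The log2 fold change was 1.62 ± 0.45 for R848+IFN-α against IFN-α, which passed, and 1.23 without R848+IFN-α replicate 3, which did not. For R848 against IFN-α it was 1.04 ± 0.48 and did not pass, whereas without R848 replicate 1 it was 1.34 and did. R848+IFN-α differed from R848 by 0.58 ± 0.38, which did not pass. In the comparison of R848+IFN-α with IFN-α 5 of 11 astrocyte markers were called higher and none lower. Of 7 tested pericyte and fibroblast markers 3 were called higher there and none lower. With R848 against IFN-α 2 of those 7 were called higher and none lower. The part of either cell group in the Vegfc level was not tested.

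**Figure D1:**
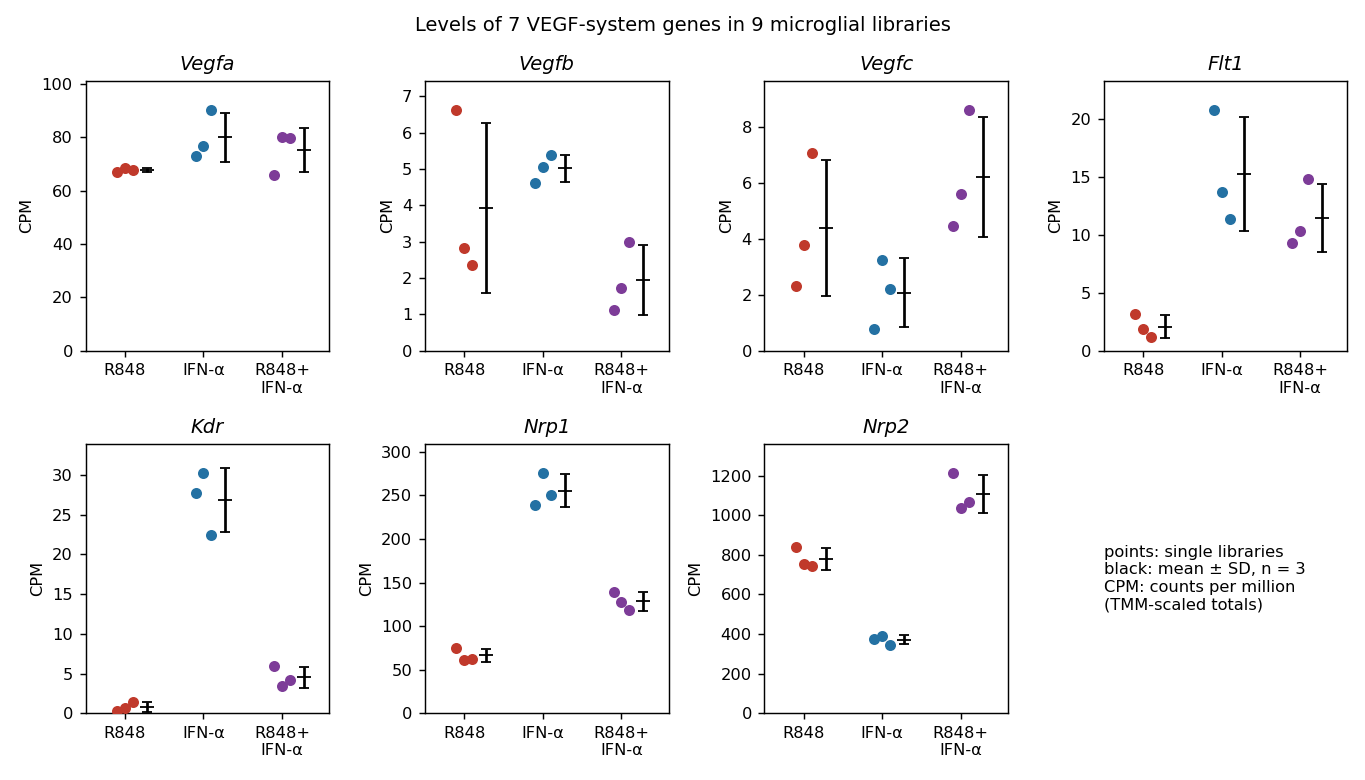
Levels in CPM (vertical axes, each starting at 0) of the 7 genes in each library of the 3 treatment groups, with mean ± SD (n = 3) in black. Kdr and Nrp1 were highest with IFN-α, Nrp2 was highest with both agents, and the Vegfa libraries lay between 65.8 and 90.2 CPM.

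Flt1 (chr5:147561604-147726011, minus strand) was low with R848 alone and higher wherever IFN-α was present. Its libraries had 3.17, 1.89 and 1.18 CPM with R848, from 11, 6 and 4 counts, against 20.8, 13.7 and 11.4 CPM with IFN-α and 9.29, 10.3 and 14.8 CPM with both agents. All R848 libraries lay below all others, and the IFN-α and R848+IFN-α libraries overlapped. Flt1 had a log2 fold change of -2.83 ± 0.34 for R848 against IFN-α, a level 7.12-fold lower, and 2.49 ± 0.35 for R848+IFN-α against R848, 5.63-fold higher. For R848+IFN-α against IFN-α it was -0.34 ± 0.25 and did not pass, but with library totals alone it was -0.65 and did. The ratios of summed counts were 7.18 (95% counting interval 4.50 to 11.99) for IFN-α to R848 and 5.87 (3.68 to 9.83) for R848+IFN-α to R848, intervals that cover counting error alone.

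Kdr (chr5:75932827-75978458, minus strand) spanned the widest range of the 7 genes. It had 1, 2 and 5 counts in the R848 libraries, or 0.288, 0.630 and 1.47 CPM, against 27.8, 30.3 and 22.5 CPM with IFN-α and 5.95, 3.44 and 4.20 CPM with both agents. The 3 groups did not overlap, with both agents giving a level between those of the single agents. Kdr had log2 fold changes of -5.00 ± 0.35 for R848 against IFN-α, 2.44 ± 0.48 for R848+IFN-α against R848 and -2.56 ± 0.25 for R848+IFN-α against IFN-α. The ratio of summed counts, 227 with IFN-α to 8 with R848, was 33.4 (95% counting interval 16.7 to 78.3), and that of R848+IFN-α to R848 was 5.64 (2.63 to 13.9). R848 replicate 3 held 5 of the 8 counts, and without it the first 2 log2 fold changes were -5.77 and 3.21. With so few counts the R848 level of Kdr is close to the limit of detection, and its size there is imprecise.

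Unlike Flt1, Kdr was thus well below the IFN-α level when R848 was given together with IFN-α. The comparisons share libraries, so their values are set side by side and no test of one gene against the other was made. Flt1 and Kdr passed the low-count filter through particular groups. Of their 3 libraries in each group, none reached the filter's 3.51 CPM of unscaled totals with R848, all 3 did with IFN-α, and with both agents 3 did for Flt1 and 1 for Kdr. Vegfb reached it in 1, 3 and 0 libraries and Vegfc in 2, 1 and 3 libraries of the R848, IFN-α and R848+IFN-α groups, while Vegfa, Nrp1 and Nrp2 reached it in every library.

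Both receptor genes are best known from endothelial cells, so endothelial markers were examined. Of 14 listed, 11 were too low to test. Emcn and Robo4 were at 0 counts in every library, Cldn5 had 1 count in all with R848 and none elsewhere, and Pecam1 had 2, 1 and 5 counts over the 3 libraries of the R848, IFN-α and R848+IFN-α groups. Together the 14 summed to 21.7 to 31.7 CPM under R848, 29.6 to 31.2 CPM under IFN-α and 37.8 to 60.4 CPM with both agents. The tested markers were Cdh5, Eng and Vwf, for an adhesion molecule, a TGF-β co-receptor and a clotting factor carrier. Cdh5 was at 15.5 ± 2.06, 15.8 ± 0.357 and 30.1 ± 6.13 CPM, and its difference of R848 from IFN-α was -0.03 ± 0.20 (edgeR adjusted p = 0.931). None of the 3 passed in that comparison, in which Flt1 and Kdr differed most. Of the untested markers, Esam (0.194, 0.837 and 1.13 CPM) and Ly6c1 (0.194, 0.354 and 1.60 CPM) had all R848 libraries below all IFN-α libraries. These levels rest on few counts, 2, 7 and 10 for Esam and 2, 3 and 16 for Ly6c1. The other untested markers overlapped there. With both agents against R848, Cdh5 (0.99 ± 0.18, edgeR adjusted p = 4.05e-05) and Eng (1.46 ± 0.34, adjusted p = 0.00114) were higher. Vwf was not called there (0.51 ± 0.33, adjusted p = 0.237). In that comparison Cdh5 and Eng thus moved with Flt1 and Kdr, and their part in it was not tested. With both agents against IFN-α, Cdh5 (0.96 ± 0.18, edgeR adjusted p = 9.26e-05) and Eng (1.14 ± 0.34, adjusted p = 0.0099) were higher as well. Vwf was not called (0.10 ± 0.32, adjusted p = 0.844), and it was at 5.70, 7.66 and 7.66 CPM with R848, IFN-α and both agents. Against IFN-α Kdr was lower and Flt1 was not called.

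**Figure D2:**
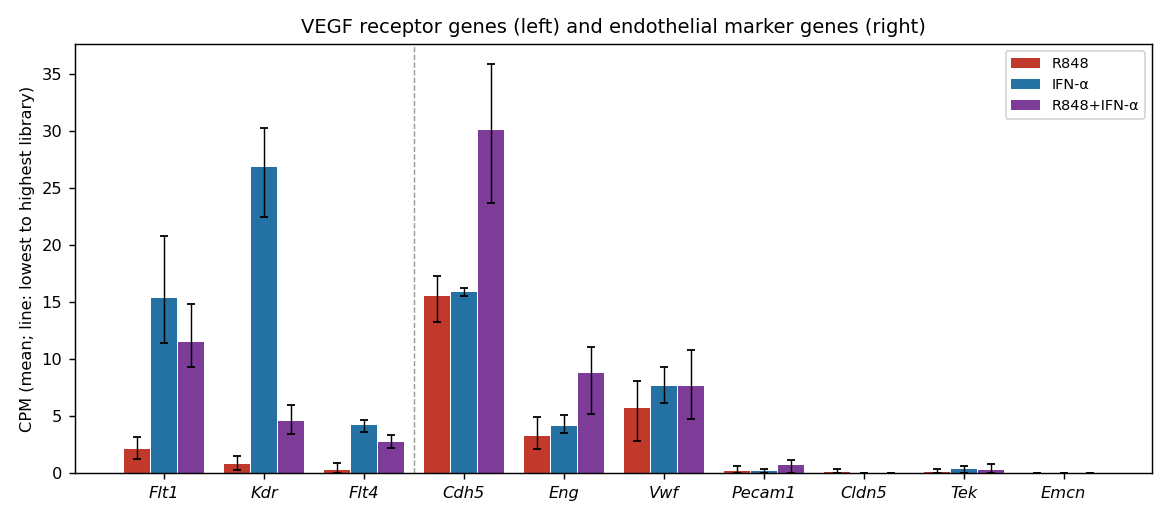
Mean CPM (bars from 0, lines from the lowest to the highest of 3 libraries) of 3 VEGF receptor genes and 7 endothelial markers under each treatment. Kdr stood at 26.8 CPM under IFN-α and 0.797 CPM under R848. In the same order Cdh5 was at 15.8 and 15.5, Eng at 4.10 and 3.26, and Vwf at 7.66 and 5.70 CPM.

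Nrp1, the neuropilin best known for binding VEGF-A and semaphorin 3A (chr8:128358604-128503363, plus strand), followed the order of Kdr. Its libraries had 75.5, 61.7 and 62.5 CPM under R848, 238.6, 276.1 and 251.0 CPM under IFN-α, and 139.4, 128.1 and 118.1 CPM with both agents. No 2 groups overlapped, and the level with both agents lay between those of the single agents. Nrp1 had log2 fold changes of -1.94 ± 0.11 for R848 against IFN-α (3.83-fold lower), 0.94 ± 0.11 for R848+IFN-α against R848 and -0.995 ± 0.10 for R848+IFN-α against IFN-α.

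Nrp2, whose product binds VEGF-C and semaphorin 3F (chr1:62703285-62818695, plus strand), went the other way and was the most abundant of the 7 genes. It had 840.2, 755.1 and 741.4 CPM under R848, 377.0, 390.7 and 346.6 CPM under IFN-α, and 1215, 1035 and 1065 CPM with both agents. Here too no 2 groups overlapped, but the highest level was with both agents and the lowest with IFN-α. Nrp2 had log2 fold changes of 1.07 ± 0.09 for R848 against IFN-α (2.10-fold higher), 0.50 ± 0.08 for R848+IFN-α against R848 (1.42-fold) and 1.57 ± 0.09 for R848+IFN-α against IFN-α (2.97-fold). The middle difference depended on scaling. With library totals alone it was 0.12 and did not pass, a scaling under which the median of all genes in that comparison was -0.42 in place of -0.03. Nrp2 lies over 2 genes of GENCODE release M21, Gm29083 on the opposite strand and Gm37121 on the same one.

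The relation between the neuropilins therefore differed by treatment. Per kilobase of exon, the ratio of Nrp2 to Nrp1 was 9.70 ± 0.463 with R848, 1.21 ± 0.0880 with IFN-α and 7.11 ± 0.397 with both agents (mean ± SD, n = 3). The libraries ranged from 9.20 to 10.1, 1.14 to 1.31 and 6.67 to 7.45, without overlap. This ratio within a library does not depend on the scaling of totals.

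**Figure D3:**
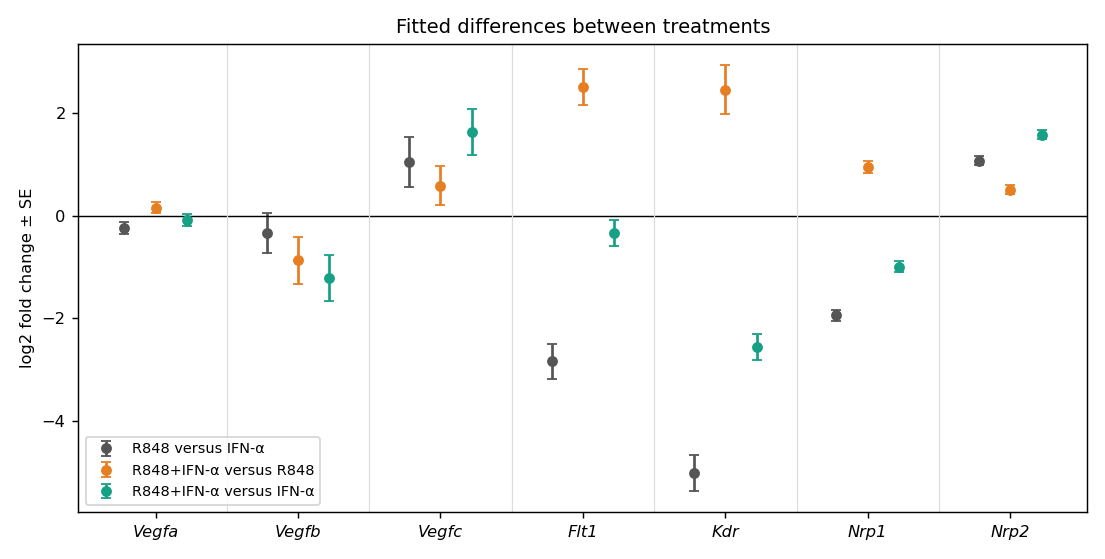
Fitted log2 fold changes ± SE (vertical axis) of the 7 genes in the 3 comparisons of treatments, from 1 model over all 9 libraries. Kdr spans -5.00 to 2.44, and Nrp2 is the gene with positive values in all 3 comparisons besides Vegfc.

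Levels of different genes were compared per kilobase, using the joined exon length of each gene in GENCODE release M21, since the lengths behind the counts are not given in the sources used here. With R848 the order was Nrp2 (65.8 ± 4.52 CPM per kb), Vegfa (15.8 ± 0.143), Nrp1 (6.80 ± 0.789), Vegfb (2.45 ± 1.46), Vegfc (1.79 ± 0.997), Flt1 (0.154 ± 0.0746) and Kdr (0.0883 ± 0.0676). The neighbours Vegfb and Vegfc overlapped between libraries, as did Flt1 and Kdr. With IFN-α, Nrp1 (26.1 ± 1.95 CPM per kb) stood next to Nrp2 (31.4 ± 1.91) and above Vegfa (18.7 ± 2.12), followed by Vegfb (3.13 ± 0.236), Kdr (2.97 ± 0.441), Flt1 (1.13 ± 0.364) and Vegfc (0.848 ± 0.507). Vegfb overlapped Kdr there, and Flt1 overlapped Vegfc. With both agents Nrp2 reached 93.3 ± 8.13 CPM per kb, Vegfa 17.5 ± 1.90 and Nrp1 13.1 ± 1.09, and the remaining genes were at or below 2.54 ± 0.875, the level of Vegfc. Of these, Vegfc overlapped Vegfb, at 1.21 ± 0.600, and Vegfb overlapped Flt1, at 0.850 ± 0.217, while Kdr was lowest, at 0.502 ± 0.142. In each group the neuropilin Nrp2 was thus at the top, and with R848 or both agents the receptor kinases were at the bottom.

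Counted over the 7 members, 1 was called higher and 3 lower with R848 than with IFN-α, where 18.4% and 19% of all genes tested were called higher and lower. With R848+IFN-α against R848, 4 were called higher and none lower, against 19.2% and 16.7% of genes. With R848+IFN-α against IFN-α, 2 were higher and 3 lower, against 18.5% and 14.7% of genes. The libraries of the groups did not overlap for 5, 4 and 5 members in these comparisons, against 46.5%, 45% and 46.2% of all genes tested. The median log2 fold change of the members was -0.34, 0.58 and -0.34, beside 0.02, -0.03 and -0.01 over all genes. As the members were chosen with these values known, nothing is read from the counts. The split of calls over all genes, 2110 higher and 1835 lower for R848+IFN-α against R848, was 1715 and 2861 with upper-quartile factors and 1176 and 4976 with library totals alone. Against IFN-α it was 2034 and 1618, then 1697 and 2091, and 1045 and 3759. The members split 3 and 1 and 2 and 5 in these comparisons with library totals alone.

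Genes with the most similar profile over the 9 libraries were found by the root mean square difference of log2 CPM, each gene centred on its own mean. For Kdr these were Il21r (0.24, against a median of 1.84 over 9447 genes), Klrg2 (0.43) and P2ry12 (0.49), a purinergic receptor that marks resting microglia. P2ry12 was at 2.40, 40.7 and 9.08 CPM with R848, IFN-α and both agents. For Nrp1 they were Naip5 (0.13), Fcgr3 (0.14) and Rnpep (0.15), against a median of 0.86. Nrp2 was closest to Ppap2b (0.09), Lilrb4a (0.11) and Rgs16 (0.11), against 0.73. Flt1 was closest to Cutc (0.31), Xdh (0.32) and Ly6e (0.33), against 1.24. For Vegfa they were Grb10 (0.06), Atxn10 (0.07) and Xbp1 (0.09), against 0.35, for Vegfb Sik1 (0.26), Xrcc1 (0.28) and Atp13a2 (0.30), against 0.71, and for Vegfc Itm2a (0.35), Rdh10 (0.38) and Itih3 (0.38), against 0.85. Close copies of the Naip, Fcgr and Lilrb4 genes make the counts of Naip5, Fcgr3 and Lilrb4a uncertain.

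The other VEGF family genes listed were low. Figf, which encodes VEGF-D, had 2 counts over all R848 libraries and none elsewhere, and Pgf, the placental growth factor gene, had 13, 8 and 16 counts over the R848, IFN-α and R848+IFN-α groups. Neither was tested. Flt4, the lymphatic VEGF receptor gene, had 3 counts with R848, all in replicate 1, against 36 with IFN-α and 27 with both agents. The ratio was 14.1 (95% counting interval 4.46 to 71.7) for IFN-α to R848 and 9.02 (2.78 to 46.5) for R848+IFN-α to R848. In CPM these were 0.288 ± 0.499, 4.22 ± 0.542 and 2.70 ± 0.604. Flt4 passed the low-count filter through the IFN-α group, where 3 libraries reached the minimum level, against none with R848 and none with both agents. Its differences are therefore given as a description, and its calls are not read as a result. Without R848 replicate 1 the R848 group was at 0 counts, and the fitted log2 fold changes moved from -3.66 to -6.75 for R848 against IFN-α and from 3.02 to 6.11 for R848+IFN-α against R848, values that then depend on the prior count.

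The counts in the lists that follow stand beside the shares of all genes tested that were called, which were 18.4% higher and 19% lower for R848 against IFN-α, 19.2% and 16.7% for R848+IFN-α against R848, and 18.5% and 14.7% for R848+IFN-α against IFN-α. Some lists lie near these shares, and none was tested as a set.

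Among class 3 semaphorin genes, whose products bind neuropilins, and plexin genes, not all of them neuropilin partners, 12 of 16 were tested. With R848 against IFN-α 2 were higher and 3 lower, the median change being 0.13. Plxnd1, a receptor for semaphorin 3E, was at 97.4 ± 21.4 and 29.0 ± 2.93 CPM (1.75 ± 0.15, edgeR adjusted p = 2.25e-11), and Plxna1, a partner of Nrp1, at 233 ± 54.0 and 74.8 ± 8.85 CPM (1.64 ± 0.13, adjusted p = 6.76e-11). Plxnc1, which binds semaphorin 7A, was lower (-0.99 ± 0.10), as was Plxnb2 (-0.82 ± 0.18). Adding IFN-α to R848 was accompanied by lower Plxnd1 (-1.16 ± 0.14, adjusted p = 4.4e-08) and Plxna1 (-0.76 ± 0.13) and higher Plxnb1 (0.79 ± 0.23, adjusted p = 0.00749), with 1 gene higher and 2 lower. The Plxnb1 call ended without R848+IFN-α replicate 2 (0.55) and with library totals alone (0.40). With both agents against IFN-α 4 were higher and 2 lower, among them Plxna1 (0.88 ± 0.14) and Plxnc1 (-1.17 ± 0.10). The semaphorin genes themselves were low, with Sema3c, at 26.7 ± 4.54, 20.9 ± 1.88 and 31.5 ± 5.29 CPM, the highest of them.

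Oxygen-sensing genes control Vegfa through the HIF transcription factors. Of 10 tested, 6 were higher and none lower under R848 than under IFN-α (median 0.42). Egln3 and Egln1, prolyl hydroxylases that mark HIF-α for degradation and are themselves HIF targets, were at 49.2 ± 4.43 and 59.6 ± 5.29 CPM under R848, 16.4 ± 1.69 and 25.4 ± 2.14 CPM under IFN-α, and 16.1 ± 5.76 and 23.9 ± 6.10 CPM with both agents. The log2 fold change against IFN-α was 1.58 ± 0.18 for Egln3 (edgeR adjusted p = 1.21e-08) and 1.23 ± 0.15 for Egln1 (adjusted p = 8.28e-08). With both agents against R848 it was -1.67 ± 0.18 and -1.33 ± 0.15 (adjusted p = 5e-09 and 2.46e-08), so with both agents these genes were close to their IFN-α levels. In that comparison 1 gene of the list was higher, Cited2 (0.56 ± 0.12, and 0.17 with library totals alone, which ended the call), and 3 were lower (median -0.19). Epas1, encoding HIF-2α, was lower with both agents than with R848 (-0.69 ± 0.18) or IFN-α (-0.86 ± 0.18, adjusted p = 2.72e-04). Hif1a was at 280.9 ± 36.0 CPM with R848, 200.7 ± 9.65 with IFN-α and 280.9 ± 12.9 with both agents. It was higher than with IFN-α both with R848 (0.48 ± 0.10, edgeR adjusted p = 1.26e-04) and with both agents (0.48 ± 0.10, adjusted p = 1.82e-04). The latter difference was 0.17 without passing with library totals alone. For both agents against R848 it was -0.00025 ± 0.09, which was not called. Against IFN-α, with both agents, 3 were higher and 1 lower (median 0.08).

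In the list of signalling genes downstream of VEGF receptors, which serve many other receptors too, 24 of 27 were tested. With R848 against IFN-α 8 were higher and 5 lower (median 0.18). The receptor phosphatase gene Ptprj, which restrains Kdr in endothelium, was at 730 ± 176 and 95.2 ± 19.6 CPM (2.94 ± 0.25, edgeR adjusted p = 2.93e-05). The kinase genes Src (2.45 ± 0.12) and Mapkapk2 (2.07 ± 0.09) were also higher, and Dab2, an endocytic adaptor gene, was lower (-1.51 ± 0.09, adjusted p = 2.02e-14). For both agents against R848 5 were higher and 4 lower (median 0.10). Sphk1, which makes sphingosine 1-phosphate, was higher (1.23 ± 0.21, adjusted p = 2.35e-05), as was Dab2 (1.01 ± 0.09), and the phosphatase gene Ptpn1 was lower (-0.98 ± 0.11). Against IFN-α 10 were higher and 7 lower (median 0.26), led by Ptprj (3.07 ± 0.25), Src (2.38 ± 0.12) and Sphk1 (2.36 ± 0.25).

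Of 11 tested genes for heparan sulphate proteoglycans, integrins and proteases that bind or release VEGF ligands, 4 were higher and 3 lower under R848 than under IFN-α (median 0.11). The syndecans differed among themselves. Sdc4 (2.10 ± 0.09, edgeR adjusted p = 4.25e-18) and Sdc1 (1.46 ± 0.16) were higher with R848, and Sdc3 was lower (-1.98 ± 0.10, adjusted p = 3.2e-16). Mmp9, a protease that releases matrix-bound VEGF, was at 39.6 ± 16.7 and 4.58 ± 2.00 CPM (3.11 ± 0.41, adjusted p = 5.03e-05). Against R848, with both agents, 4 were higher and 2 lower (median 0.43), with Sdc3 at 1.94 ± 0.10 and Sdc1 at -1.08 ± 0.15. Against IFN-α 4 were higher and 3 lower (median 0.33), with Sdc4 at 3.00 ± 0.09.

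Among 20 tested genes for other angiogenic factors and their receptors, 9 were higher and 3 lower under R848 than under IFN-α (median 0.40). Pdgfb, a growth factor gene that recruits pericytes, was at 276 ± 63.5 CPM with R848, 42.3 ± 4.07 with IFN-α and 518.5 ± 33.2 with both agents, with log2 fold changes of 2.71 ± 0.13, 0.91 ± 0.11 and 3.62 ± 0.13 in the comparisons as ordered above (edgeR adjusted p at most 2.03e-07). Hgf, the hepatocyte growth factor gene, was lower with R848 (-2.16 ± 0.19) and with both agents (-1.51 ± 0.18) than with IFN-α, while its receptor gene Met was higher (1.30 ± 0.13 and 1.37 ± 0.13). With both agents against R848 9 were higher and 1 lower (median 0.20). Hbegf, an EGF receptor ligand gene, rose to 155 ± 4.93 CPM from 63.9 ± 5.82 (1.28 ± 0.10, adjusted p = 1.11e-11), Angpt1, the ligand gene of the endothelial receptor Tie2, was higher (1.23 ± 0.18), and Igf1 was lower (-0.90 ± 0.09). Against IFN-α 11 were higher and 2 lower (median 0.64). In that comparison and against R848, astrocyte markers were called higher in 5 and 9 of 11. Pericyte and fibroblast markers were called higher in 3 and 2 of 7 tested. The part of either cell group in these lists was not tested.

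**Figure D4:**
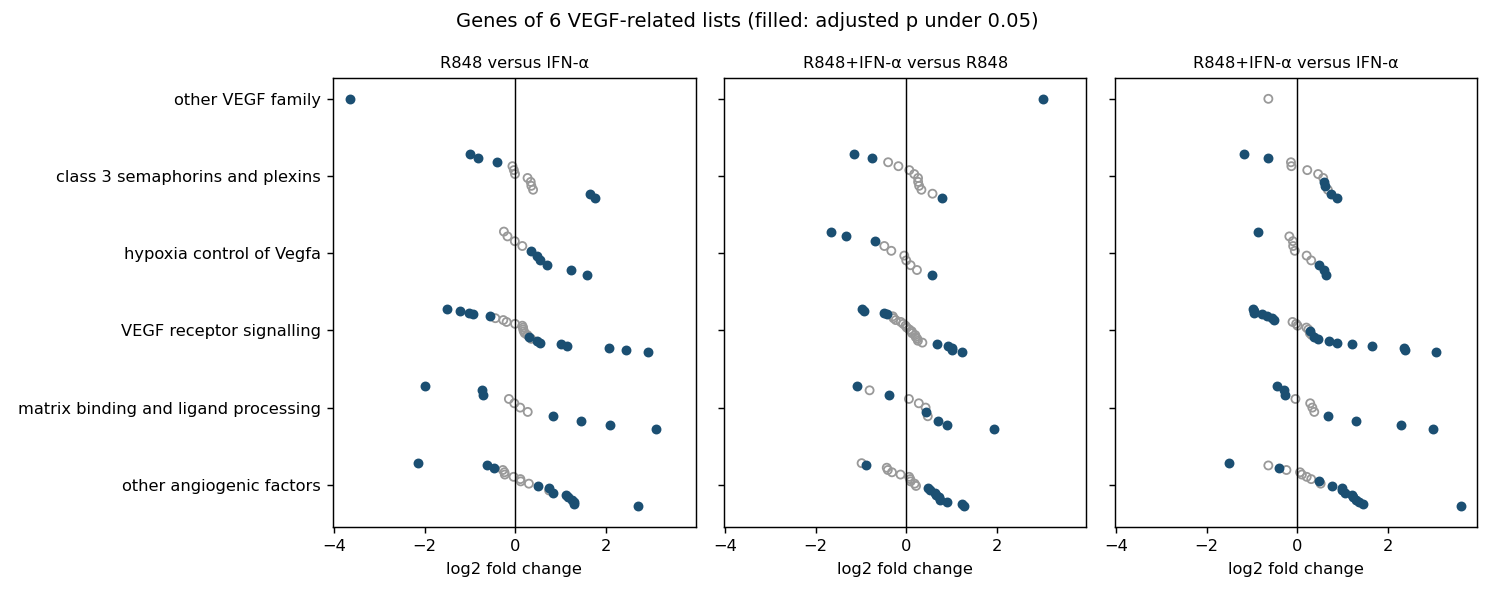
Log2 fold changes (horizontal axes) of the tested genes of 6 VEGF-related lists in the 3 comparisons, where each point is a gene and filled points have an adjusted p under 0.05. Over all lists 29 of 78 genes were higher and 15 lower with R848 than with IFN-α, 21 and 12 with both agents than with R848, and 32 and 15 with both agents than with IFN-α. These counts include Flt4, called lower in the first comparison and higher in the second. It passed the low-count filter through the IFN-α group.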

How the data were processed

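The values deposited by the authors are whole-number read counts by gene, not normalized, in unstranded, forward-strand and reverse-strand columns. Per the submitters' processing notes, CASAVA 1.8.2, Trimmomatic 0.33, STAR 2.5.1 and DESeq2 were used with the mm10 build of the mouse genome, and no annotation is named in the sources used here. Per the labels' protocols, ribosomal RNA was removed and a directional kit was used. The reverse-strand counts were taken, since forward-strand counts made up 1.09% to 1.50% of both strands per library. Read pairs in no gene on that strand were 39.3% to 44.4% of all read pairs, and the rows that name no gene stayed out of library totals and tests. The files list multimapping reads in a row of their own, apart from the genes, so counts of genes with close copies are uncertain.

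Genes were filtered with edgeR's filterByExpr by group (minimum count 10, minimum total 15), scaled with TMM factors, and fitted as group means over 9 libraries with edgeR 4.0.16, limma 3.58.1 and R 4.3.3 (robust quasi-likelihood). P-values were adjusted by Benjamini-Hochberg over 11002 genes, and a gene was called under 0.05. The biological coefficient of variation was 0.0955. SE is the absolute log2 fold change over the square root of the F statistic. Counting intervals are exact binomial at 95% and cover counting error only. Libraries within a group differed beyond counting noise in each pair (chi-square over degrees of freedom of 1.92 to 6.27 without Rn45s), so no pair was taken for a repeated deposit of 1 library. Positions and exon lengths are from GENCODE M21 on GRCm38, the assembly that mm10 names, and promoter sequences are from RefSeq (GRCm38.p6).

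The members, gene lists and cell type markers were chosen with earlier results of these data known. The genes named are the 7 members, up to 4 called genes with the largest absolute change per list and comparison, and the 3 genes of at least 5 CPM most like each member, without predicted or clone names. Figf, Pgf, Sema3c and the single cell type markers, such as Cnp, Esam and Ly6c1, were named outside this rule, after their values were seen. Alternatives were DESeq2 1.42.0, other scalings and filters, a replicate block, each library left out, only the groups compared, unstranded counts and Rn45s left out.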

Additional observations from a re-analysis of the deposited data

Results flagged for a closer look

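Counts on the strand opposite to the gene, which no comparison uses, made up 1.30% of the counts of all genes. The share was above that for 3 members with more than 3 such counts over the 9 libraries. It was 7.08% for Vegfb (8 of the counts on either strand, with 105 on the gene's strand), 4.23% for Flt1 (12, with 272) and 1.41% for Kdr (4, with 280). With unstranded counts the Vegfb difference of R848+IFN-α from IFN-α did not pass, as given above, whereas the calls of Flt1 and Kdr were as in the main comparison. For Nrp2, the member that overlaps an annotated antisense gene, 103 counts were on the opposite strand, with 21983 on its own.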

How the results depend on the processing

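Across 17 to 18 alternatives, the called differences of Flt1, Kdr and Nrp1 kept their direction and their call. So did those of Nrp2 between single agents and against IFN-α. Flt1 and Kdr passed the low-count filter through groups given IFN-α, and the members were chosen with their values known. This constancy therefore describes the fit and is no separate support. The Flt1 difference of R848+IFN-α from IFN-α became called with library totals alone (-0.65), as did that of Vegfa (-0.41). The Nrp2 difference of R848+IFN-α from R848 lost its call with library totals alone. With that scaling genes called higher and lower numbered 1176 and 4976 for R848+IFN-α against R848 and 1045 and 3759 against IFN-α. Members called lower were then 1 and 5, listed pathway genes called higher were 10 and 20, and those called lower against R848 were 28. The Vegfa difference of R848+IFN-α from R848 changed sign there (-0.24), and that from IFN-α did so without IFN-α replicate 3, neither being called in these settings. Leaving out 1 library at a time, the latter ranged from -0.15 to 0.011. Upper-quartile factors gave 2861 genes and 20 listed genes called lower against R848. A stricter filter (minimum count 50), under which the sparse members are not tested, left 1 member called higher against IFN-α. Leaving out 1 library at a time gave 1 to 2 members called higher both for R848 against IFN-α and for R848+IFN-α against IFN-α. Same-numbered libraries did not deviate together (r from -0.10 to 0.06), so the numbers are not taken as pairs. With a replicate block 2036 genes were higher and 2111 lower for R848 against IFN-α, and no call of a member changed. Depth limits Vegfb, Vegfc, Flt4 and the R848 levels of Flt1 and Kdr, each resting on few counts per library.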
